A study of Mus musculus with 19 samples.

Results

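Lemborexant was compared with vehicle in the cortical libraries that carried the gliosis of this tauopathy model, and genes of microglia, astrocytes, synapses and neuronal activity were followed. Libraries were kept where Cst7, a cystatin gene that microglia switch on around pathology, reached at least 1 CPM (a read count scaled to the library's total), so the libraries were chosen by a measured level. This kept 15 of 19 libraries, 8 from lemborexant and 7 from vehicle mice. Lemborexant 3 and 8, and lemborexant 4 and 9, were nearly identical pairs, for which the chi-square of counts over its degrees of freedom was 3.43 and 3.66, against 12.3 to 232 for the other 103 pairs of kept libraries. Each pair was summed and counted once, which left 6 lemborexant and 7 vehicle units. Cst7 chose the libraries and received no test: the lowest kept library, lemborexant 3, had 17.0 CPM of it, the highest kept, vehicle 5, had 123 CPM, and the highest left out, lemborexant 10, had 0.259 CPM. Lemborexant 1 and 10 and vehicle 1 and 4 were left out.

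All mice were male, labelled P301S/E4 and 41 weeks old, and RNA came from frozen cortex. P301S is a tau mutation of inherited frontotemporal dementia, and E4 is the human apolipoprotein E form that raises the risk of Alzheimer's disease. The treated mice received lemborexant, an antagonist of both orexin receptors, by gavage at 30 mg/kg every day at zeitgeber time 13, counted in hours from lights on, from 7.5 to 9.5 months of age, and the control mice received 0.5% methylcellulose. The labels do not give the promoter of the tau transgene, and nothing in them ties a library to its own mouse, so the tests measure spread among libraries, which may be technical. Lemborexant blocks the action of orexin, a hypothalamic peptide that sustains wakefulness. The comparison asks which transcripts differed with the drug among cortices that all had reactive glia.

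In tauopathy, microglia leave their resting state under the control of the receptor Trem2 and its adaptor Tyrobp, and take on a disease-associated program of lysosomal, lipid and phagocytic genes. Astrocytes respond with Gfap, Vim and acute phase proteins such as Serpina3n, and complement proteins from both cell types tag synapses for removal. Synaptic genes and immediate early genes, which neurons transcribe within minutes of firing, report on the neuronal side. In bulk RNA, fewer cells of a type and less RNA per cell cannot be told apart.

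The kept libraries held 22753316 to 31795633 estimated reads on genes. Cortical neuron markers were present in every unit, with a summed level of 494 to 685 CPM over 12 genes in lemborexant and 511 to 607 CPM in vehicle units. Their average centred log2 CPM was -0.95 in lemborexant 7 and between -0.22 and 0.34 in the other 12 units, so that unit went against its cortical label. Lemborexant 7 also stood apart in hypothalamic genes, with 1225 CPM of Pmch, the melanin-concentrating hormone gene, against at most 2.16 CPM in the other units. Vehicle 7 stood apart in liver genes, with 323 CPM of Apoa2 and 215 CPM of Cyp2e1. List medians below are therefore also given without these 2 units. Library numbers fell into 2 ranges, 859 to 933 and 1064 to 1602, and in both every lemborexant number was lower than every vehicle number, so treatment and the order of the numbers cannot be told apart. Of the kept libraries, only lemborexant 8 and 9 and vehicle 8 and 9 were in the range 859 to 933. These lemborexant libraries are the near-identical partners of lemborexant 3 and 4 in the other range, so the ranges are not separate samples. Levels below are CPM scaled with edgeR's TMM factors, given as mean ± SD over 6 lemborexant and 7 vehicle units, and changes are log2 ratios of lemborexant to vehicle with their SE.

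No gene of 19226 tested (0%) was called at an adjusted p of 0.05 by the quasi-likelihood test of edgeR, where the lowest adjusted p was 0.0531. At an unadjusted p under 0.05 there were 3931 genes, of which 10.6% of all genes tested were higher and 9.85% lower. At an adjusted p under 0.1, edgeR counted 360 genes as higher (1.87%) and 475 as lower (2.47%). The number of calls at 0.05 differed between tools on the same units: DESeq2 called 583 genes higher and 755 lower, limma voom with quality weights 907 and 999, and limma on log2(TPM + 1) a single gene. Leaving out lemborexant 3 and 8 gave edgeR 670 calls, and leaving out lemborexant 5 gave 159. Without both lemborexant 7 and vehicle 7, edgeR made 0 calls, with 3239 genes at an unadjusted p under 0.05. Because no gene passed in edgeR, the values below are described and not called changes, and the unadjusted threshold is used only to set counts of list members beside the same counts over all genes.

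The disease-associated microglia genes Clec7a, Trem2, Tyrobp and Itgax were at similar mean levels under both treatments. For each of them the SD in either group was wider than the difference of the means. Clec7a, the beta-glucan receptor at chr6:129461591-129472779 (GRCm38), ranged from 21.5 CPM to 135 CPM with a median of 52.4 CPM in lemborexant units. In vehicle units it ranged from 20.3 to 100.4 CPM with a median of 56.6 CPM. Lemborexant 6 was the highest of all 13 units and the other lemborexant units lay within the vehicle range. The means were 61.2 ± 42.0 CPM and 59.9 ± 28.7 CPM, a log2 change of 0.03 ± 0.42 with a 95% interval of -0.86 to 0.92 (edgeR adjusted p = 0.978). The interval therefore includes both a 1.5-fold lower and a 1.5-fold higher level.

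Trem2, the lipid-sensing receptor that starts the program, was at 153.5 ± 94.4 CPM with lemborexant and 171 ± 71.8 CPM with vehicle. Its log2 change was -0.16 ± 0.35 (95% interval -0.90 to 0.59). Its adaptor Tyrobp ranged from 68.0 to 469 CPM in lemborexant and from 74.7 to 395 CPM in vehicle units, with a log2 change of -0.13 ± 0.45. Lemborexant 6 was again the highest unit for both genes and lemborexant 3 and 8 the lowest. The integrin gene Itgax had a log2 change of -0.21 ± 0.30, and Apoe, counted on the mouse gene and not on human APOE, one of 0.45 ± 0.38. The pan-microglial gene Aif1 had a log2 change of -0.16 ± 0.41. None of these reached an unadjusted p of 0.05.

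**Figure D1:**
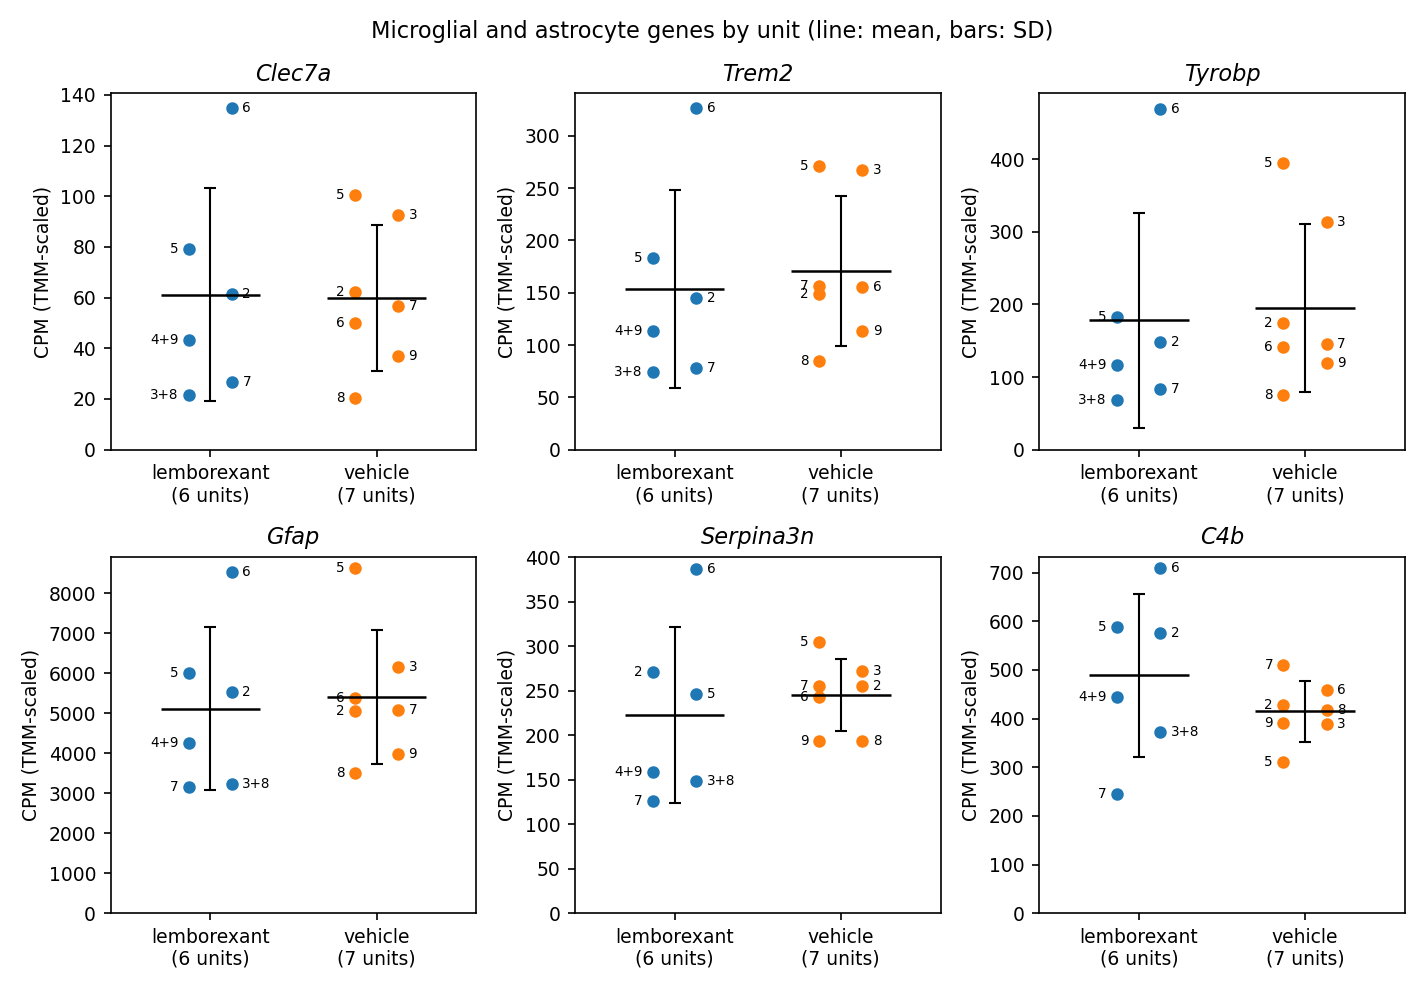
Level in CPM (y axis, linear from 0) of 6 microglial and astrocyte genes in each of the 6 lemborexant and 7 vehicle units (points, labelled by unit number), with the mean (line) and SD (bars). The 2 groups overlap in all 6 genes, and lemborexant 6 lies highest among the lemborexant units in each.

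Of the 30 disease-associated microglia genes tested, 19 were higher and 11 lower, with a median log2 change of 0.08 against 0.02 for all genes. An unadjusted p under 0.05 was reached by 2 of them, both higher (6.67% of the list, against 10.6% of all genes). Gpnmb, a lysosomal glycoprotein gene of lipid-laden microglia, ranged from 29.6 to 233 CPM with a median of 95.5 CPM in lemborexant units. Its vehicle range was 42.5 to 60.3 CPM with a median of 52.6 CPM. Lemborexant 2, 4 and 9, 5 and 6 lay above every vehicle unit, while lemborexant 3 and 8 and lemborexant 7 lay below every one. The log2 change was 1.04 ± 0.37 (edgeR adjusted p = 0.149). Timp2, a metalloproteinase inhibitor gene, had a log2 change of 0.48 ± 0.16 (edgeR adjusted p = 0.128), and the growth factor gene Igf1 one of 0.46 ± 0.25.

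Without lemborexant 6 the median of the disease-associated list was -0.16, with 1 member higher (3.33%) and 4 lower (13.3%) at an unadjusted p under 0.05. In that fit 4338 of 19508 genes reached this threshold in either direction. Without lemborexant 7 and vehicle 7 the median was 0.21. There 5 members were higher (16.7%, against 8.8% of all genes in that fit) and 0 lower at the same threshold. Within library numbers 1064 to 1602 the median was -0.06, with 2 higher and 3 lower (10%, against 11.3% of all genes). Within 859 to 933 the median was 0.04, with 2 higher and 0 lower. The median also moved with the marker score of a brain region in the fit. With a score of thalamic and hypothalamic markers as a covariate it was 0.57. There 15 members were higher (50%, against 7.64% of all genes in that fit) and 0 lower (0%, against 5.92%) at an unadjusted p under 0.05. None passed an adjusted p under 0.05. With a hippocampal score the median was -0.22, with 0 members at an unadjusted p under 0.05. In that fit only 1.06% of all genes were higher and 0.442% lower at this threshold. The hippocampal score did not overlap between the groups, so that fit cannot separate it from treatment. Trem2, Tyrobp, Itgax and Aif1 had positive log2 changes of 0.49, 0.61, 0.27 and 0.55 with the thalamic score, so the direction of the microglial genes was not settled by these units. The list score (the average of its genes' log2 CPM after each gene was centred over the 13 units) ran from -0.84 in lemborexant 7 to 1.05 in lemborexant 6. In vehicle units it ran from -0.67 to 0.58, so both ends of the scale were lemborexant units. Lemborexant 7 also had the highest thalamic and hypothalamic score, 2.78. That score was -0.77 to 1.10 in the other lemborexant units and -1.03 to -0.16 in vehicle units. The weight of lemborexant 7 in the fit with the thalamic score was not tested.

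Homeostatic and pan-microglial genes had no member at an adjusted p under 0.1. Of 18 homeostatic genes 6 were higher and 12 lower (median -0.09), and of 16 pan-microglial genes 6 were higher and 10 lower (median -0.07). Without lemborexant 7 and vehicle 7 these medians were 0.02 and 0.04. Both were above 0 when lemborexant 7 (0.03 and 0.07) or vehicle 3 (0.05 and 0.02) was left out, and the pan-microglial one also without lemborexant 3 and 8 (0.03) or vehicle 5 (0.02). In the other direction, the homeostatic and pan-microglial medians were -0.21 and -0.41 without lemborexant 6. In that fit 2 members of each list were lower at an unadjusted p under 0.05 (11.1% and 12.5%), and 1 homeostatic gene was higher. There 4338 of 19508 genes reached this threshold in either direction. Within library numbers 1064 to 1602 the medians were -0.19 and -0.24. P2ry12, the purinergic receptor of resting microglia, was at 67.5 ± 17.5 CPM with lemborexant and 82.0 ± 18.0 CPM with vehicle, a log2 change of -0.28 ± 0.18 (95% interval -0.66 to 0.09). Tmem119, another marker of resident microglia, had one of -0.14 ± 0.15. The members with the smallest p were Selplg, an adhesion ligand gene (-0.41 ± 0.17), Sparc, a matrix protein gene that is also made by other cells (0.56 ± 0.25), and Mef2c, a transcription factor gene shared with neurons (0.66 ± 0.34). Sparc was at 2611 CPM in lemborexant 7 and at most 1150 CPM in the other lemborexant units. The myeloid factor gene Spi1 had a log2 change of -0.60 ± 0.32, the adaptor gene Hcls1 one of -0.33 ± 0.24 and the phosphatase gene Inpp5d one of 0.19 ± 0.17.

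Complement genes were split, with 7 of 12 higher and 5 lower (median 0.12). The median was 0.38 without lemborexant 7 and vehicle 7, with 5 higher at an unadjusted p under 0.05 (41.7%, against 8.8% of all genes in that fit), and -0.07 without lemborexant 6. C1qa, a chain of the initiating C1q complex, was at 183 ± 127 CPM with lemborexant and 203 ± 106 CPM with vehicle. C4b, the next component of the cascade, was at 489 ± 168 CPM and 415 ± 62.5 CPM, a log2 change of 0.24 ± 0.20. C3, the central component, ranged from 12.7 to 105 CPM with a median of 46.9 CPM in lemborexant units and from 12.1 to 60.4 CPM with a median of 18.9 CPM in vehicle units. The C3 groups overlapped, and its log2 change was 0.95 ± 0.45 with a 95% interval of -0.01 to 1.90 (edgeR adjusted p = 0.248). C2, the protease that acts with C4b, had a log2 change of 0.99 ± 0.31 (edgeR adjusted p = 0.112).

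Interferon-stimulated genes (16 tested, 4 higher and 12 lower, median -0.13) and antigen presentation genes (12 tested, 4 higher and 8 lower, median -0.11) had no member at an unadjusted p under 0.05 with all units. Without lemborexant 7 and vehicle 7 these medians were 0.22 and 0.06, and they were also above 0 without lemborexant 7 alone (0.04 and 0.03), as was the interferon median without vehicle 7 alone (0.03). Without lemborexant 6 they were -0.20 and -0.36. Within library numbers 1064 to 1602 both medians were -0.28. In that fit 4 antigen presentation genes were lower at an unadjusted p under 0.05 (33.3%, against 11.3% of all genes). The ubiquitin-like modifier gene Isg15 had a log2 change of -0.59 ± 0.45, the interferon regulator Irf7 one of -0.34 ± 0.40 and the antiviral membrane protein gene Bst2 one of -0.30 ± 0.36. Among class II genes, the invariant chain gene Cd74 had -0.67 ± 0.38, H2-Ab1 -0.59 ± 0.42 and H2-Eb1 -0.58 ± 0.43. The class II values were highest in vehicle 5, where H2-Ab1 reached 123 CPM against at most 59.5 CPM in the other vehicle units.

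Gfap, the intermediate filament gene at chr11:102887336-102900912 (GRCm38) that marks reactive astrocytes, was at nearly the same mean level under both treatments. It ranged from 3159 to 8518 CPM with a median of 4886 CPM in lemborexant units and from 3514 to 8627 CPM with a median of 5071 CPM in vehicle units. Lemborexant 6 and vehicle 5 were the highest of their groups. The means were 5114 ± 2032 CPM and 5397 ± 1673 CPM, a log2 change of -0.08 ± 0.25 (95% interval -0.61 to 0.46, edgeR adjusted p = 0.884). The sign of the Gfap change was positive under several alternatives, among them TPM values, the thalamic score as a covariate and the fits without vehicle 5 or without both lemborexant 7 and vehicle 7. Vim, a second filament gene, had a log2 change of 0.44 ± 0.32. The protease inhibitor gene Serpina3n had one of -0.14 ± 0.23. Lcn2, an iron-binding acute phase gene, ranged from 1.53 to 33.5 CPM in lemborexant and from 4.10 to 29.4 CPM in vehicle units, with a log2 change of 0.46 ± 0.62.

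Several other reactive astrocyte genes were at higher mean levels with lemborexant. Of 27 tested, 16 were higher and 11 lower (median 0.14), and 6, all higher, reached an unadjusted p under 0.05 (22.2% against 10.6% of all genes). Fbln5, an elastic fibre protein gene, ranged from 13.7 to 25.1 CPM with a median of 19.7 CPM in lemborexant units. Its vehicle range was 7.75 to 13.9 CPM with a median of 11.8 CPM. Only lemborexant 3 and 8 lay inside the vehicle range for Fbln5. The log2 change was 0.82 ± 0.16 (95% interval 0.48 to 1.16, edgeR adjusted p = 0.0531). Nes, the nestin filament gene, had a log2 change of 0.74 ± 0.23 and Cp, the copper ferroxidase ceruloplasmin, one of 0.68 ± 0.25. The list median was 0.31 without lemborexant 7 and vehicle 7, -0.0035 without lemborexant 6, -0.08 within library numbers 1064 to 1602 and 0.05 within 859 to 933.

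Meningeal and vascular markers were also at higher levels with lemborexant. All 9 meningeal fibroblast markers were above 0 in log2 change (median 1.01) and 4 reached an unadjusted p under 0.05 (44.4%, against 10.6% of all genes). The median was 0.60 without lemborexant 2 and 1.13 without lemborexant 7 and vehicle 7. Their score, the average of the markers' centred log2 CPM, ran from -1.31 to 0.67 in vehicle units. Lemborexant 5 (0.47), lemborexant 6 (-0.68) and lemborexant 7 (-0.82) lay inside that range. Their summed level was 84.4 to 475 CPM in lemborexant and 91.4 to 256 CPM in vehicle units, and none was at 0 in any unit. Of 9 endothelial markers 8 were higher (median 0.26), with summed levels of 300.1 to 481 CPM and 279 to 429 CPM. The endothelial median was 0.33 without lemborexant 7 and vehicle 7. With all units 4 of the 9 reached an unadjusted p under 0.05 (44.4%, against 10.6% of all genes). Without lemborexant 2 only 1 of the 9 did (11.1%), while 2963 of 19421 genes reached that threshold in either direction. The part of these cells in the astrocyte list, where Fbln5 is also a gene of vessel walls, was not tested.

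Homeostatic astrocyte genes included 12 higher and 8 lower of 20 (median 0.09, or 0.08 without lemborexant 7 and vehicle 7 and 0.03 without lemborexant 6). Kcnj10, the inward rectifier channel that clears potassium, was at 121 ± 23.6 CPM with lemborexant and 81.1 ± 9.88 CPM with vehicle. Its lowest lemborexant unit, lemborexant 3 and 8 at 88.2 CPM, lay below the highest vehicle unit, vehicle 3 at 102 CPM, and its log2 change was 0.58 ± 0.13 (edgeR adjusted p = 0.0596). Slc7a10, a serine transporter gene, had a log2 change of 0.29 ± 0.09. The water channel gene Aqp4 had 0.33 ± 0.21 (95% interval -0.10 to 0.77). The main glutamate transporter gene Slc1a2 had -0.02 ± 0.14 (95% interval -0.31 to 0.28) and the gap junction gene Gja1 0.07 ± 0.10 (95% interval -0.14 to 0.29).

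**Figure D2:**
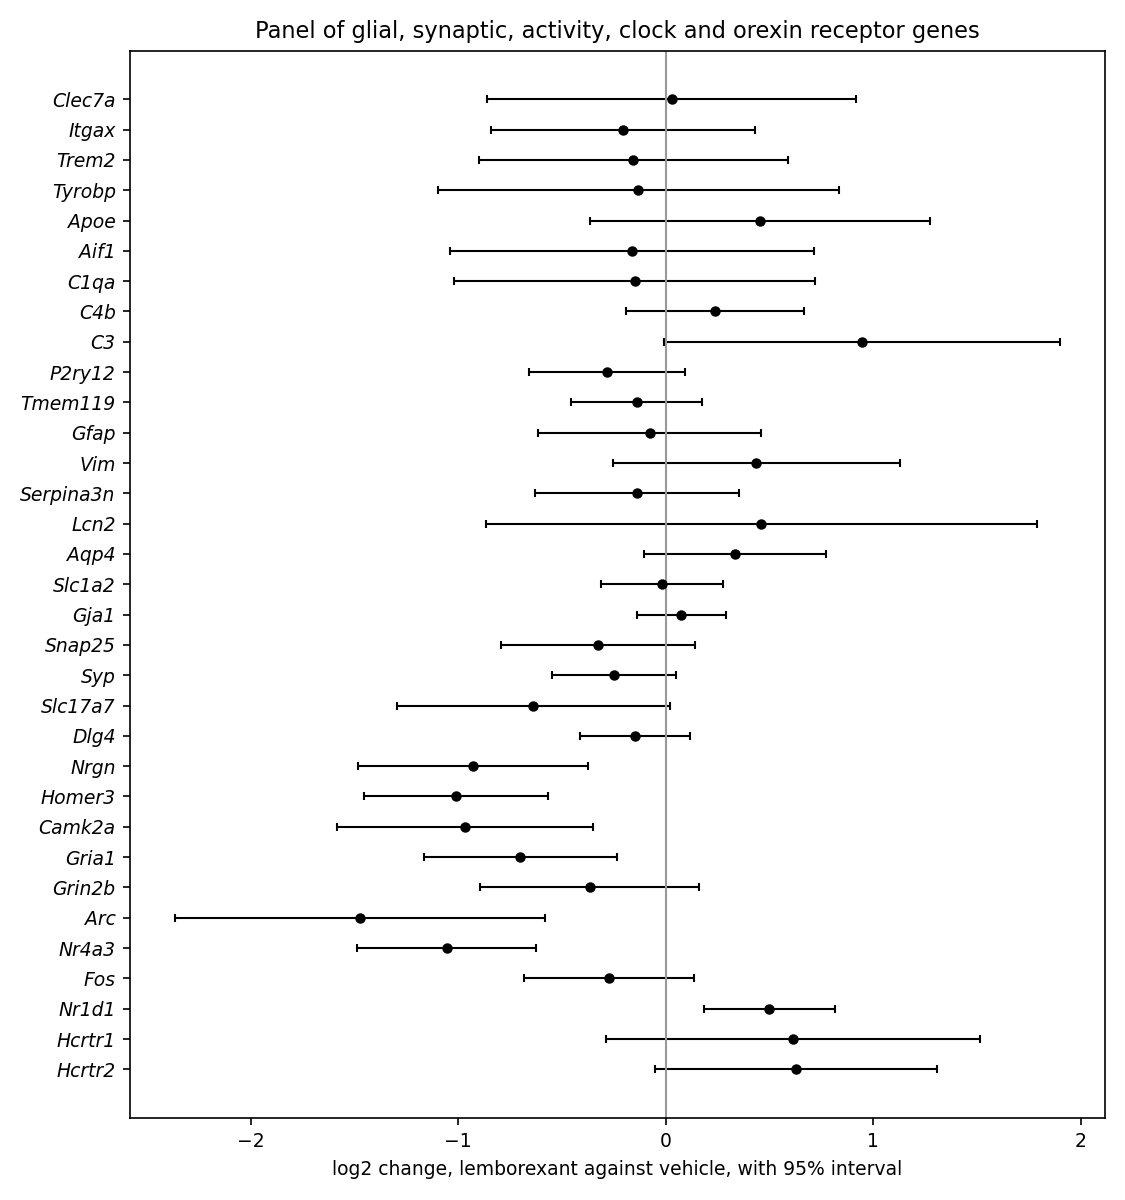
Log2 change of lemborexant against vehicle (x axis) with its 95% interval (bars) from edgeR for the 33 genes that were always reported, in the order microglia and complement, astrocytes, synapse, activity, clock and orexin receptors. Intervals of the glial genes include 0, while those of Nrgn, Homer3, Camk2a, Gria1, Arc and Nr4a3 lie below it and that of Nr1d1 above it.

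Presynaptic genes were mostly lower with lemborexant, 18 of 25 with 7 higher (median -0.19), and 4 lower and 1 higher reached an unadjusted p under 0.05 (16% lower, against 9.85% of all genes). The median was -0.09 without lemborexant 7, also when vehicle 7 was left out with it, and -0.29 without lemborexant 3 and 8. In that last fit 11 were lower at that threshold (44%), while 4432 of 19383 genes reached it in either direction. Within library numbers 1064 to 1602 the median was -0.19, and within 859 to 933 it was 0.04, where its sign turned. Snap25, a fusion protein gene of all synapses, was at 2575 ± 910 CPM and 3227 ± 678 CPM, a log2 change of -0.33 ± 0.22 (95% interval -0.79 to 0.14). Syp, the vesicle protein synaptophysin, had one of -0.25 ± 0.14. The vesicle phosphoprotein gene Syn2 had a log2 change of -0.38 ± 0.12.

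The vesicular glutamate transporter genes had log2 changes of opposite sign. Slc17a7, the transporter of cortical and hippocampal neurons, was at 15.2 CPM in lemborexant 7 and between 91.4 and 118 CPM in the 5 others of its group, against 102 to 150 CPM in vehicle units. Slc17a6, the transporter of thalamic and hypothalamic neurons, reached 156 CPM in lemborexant 7, with a median of 36.9 CPM in lemborexant and 14.1 CPM in vehicle units. Its log2 change was 1.73 ± 0.58 (edgeR adjusted p = 0.133), that of Slc17a7 -0.64 ± 0.31.

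Postsynaptic genes were lower in 30 of 32 cases (median log2 change -0.33). An unadjusted p under 0.05 was reached by 13 lower genes (40.6%, against 9.85% of all genes) and 1 higher gene. An adjusted p under 0.1 was reached by 5, all lower (15.6%, against 2.47% of all genes). Without lemborexant 7 and vehicle 7 the median was -0.25, with 9 lower at an unadjusted p under 0.05 (28.1%, against 8.05% of all genes in that fit). It was also -0.25 within library numbers 1064 to 1602, with 9 lower (28.1%, against 11.3%), and -0.16 within 859 to 933, with 5 lower (15.6%, against 3.72%). The range 859 to 933 held only lemborexant 8 and 9, which pair with lemborexant 3 and 4 of the other range, and vehicle 8 and 9. Homer3, a scaffold gene at chr8:70282827-70294361 (GRCm38) that links metabotropic receptors to calcium stores, ranged from 9.53 to 23.6 CPM with a median of 14.1 CPM in lemborexant units. Its vehicle range was 24.4 to 39.0 CPM with a median of 27.8 CPM. Every lemborexant unit lay below every vehicle unit, as for 260 of all genes (1.35%), while 95 (0.494%) were higher in every lemborexant unit than in any vehicle unit. The log2 change of Homer3 was -1.01 ± 0.21 (95% interval -1.45 to -0.57, edgeR adjusted p = 0.0558).

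Nrgn, the calmodulin-binding protein neurogranin at chr9:37544492-37552904 (GRCm38), ranged from 124 to 583 CPM with a median of 414 CPM in lemborexant and from 643 to 927 CPM with a median of 731 CPM in vehicle units. The groups did not overlap, lemborexant 7 was the lowest, and the log2 change was -0.93 ± 0.26 (edgeR adjusted p = 0.0894). Camk2a, the alpha chain of the kinase that strengthens synapses, was at 1012 ± 528 CPM and 1978 ± 328 CPM, a log2 change of -0.97 ± 0.29 (edgeR adjusted p = 0.101). Its partner chain Camk2b had -0.74 ± 0.17 (edgeR adjusted p = 0.0662). The AMPA receptor subunit gene Gria1 had -0.70 ± 0.22 (95% interval -1.16 to -0.24). The NMDA receptor subunit gene Grin2b had -0.37 ± 0.25, and Dlg4, the main scaffold of excitatory synapses, -0.15 ± 0.12 (95% interval -0.41 to 0.12).

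**Figure D3:**
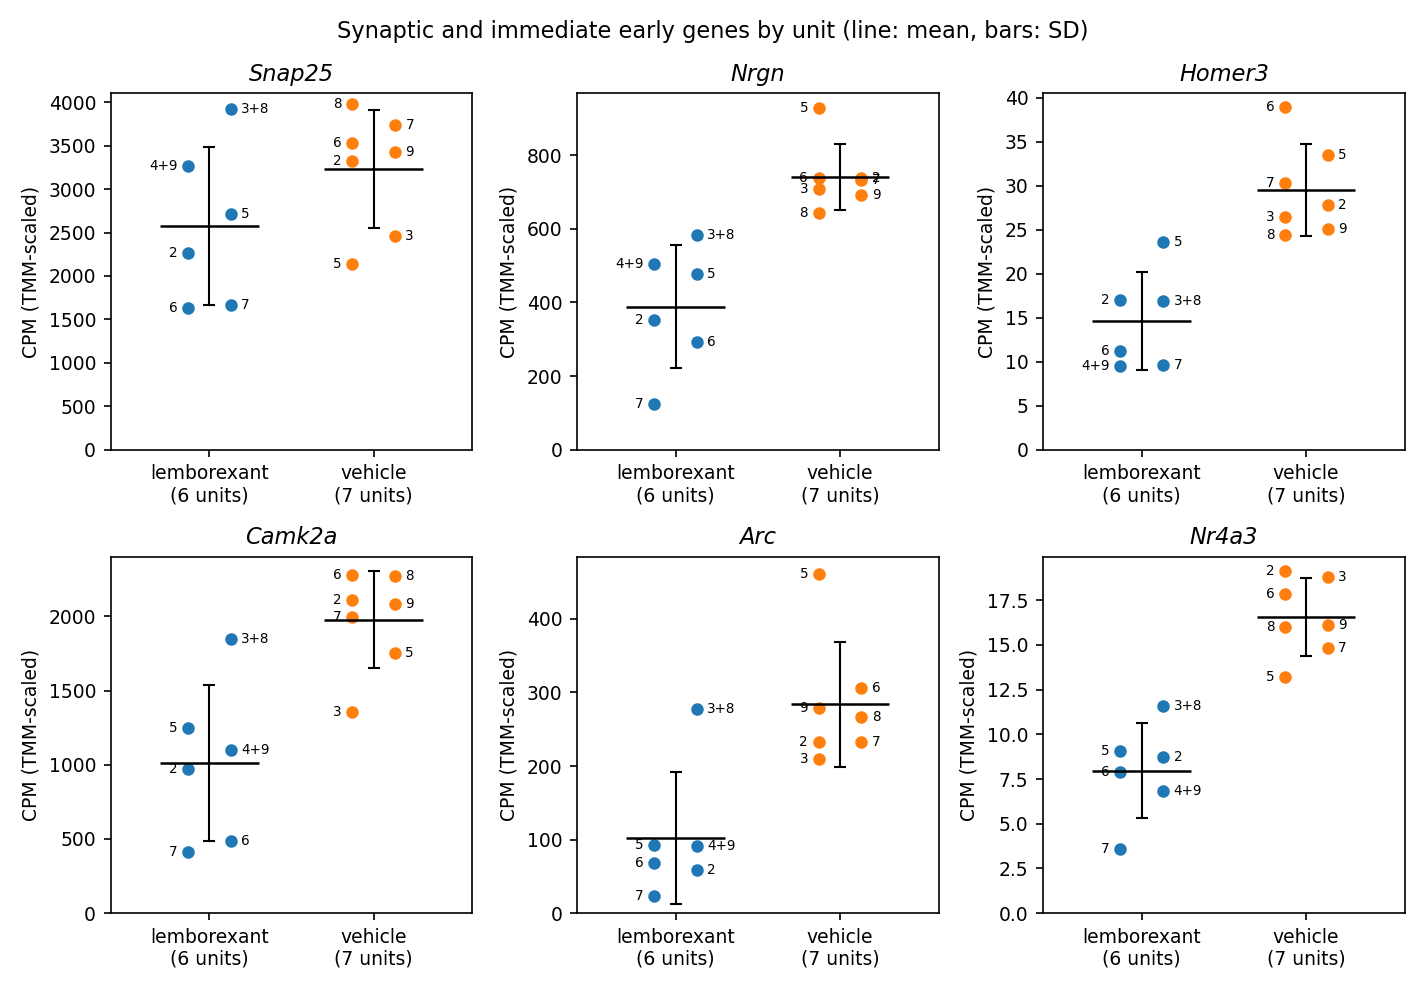
Level in CPM (y axis, linear from 0) of 4 synaptic and 2 immediate early genes in each unit (points, labelled by unit number), with the mean (line) and SD (bars) of 6 lemborexant and 7 vehicle units. Groups do not overlap for Nrgn, Homer3 and Nr4a3, while for Arc lemborexant 3 and 8 lies among the vehicle units.

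Immediate early genes gave the lowest median of the lists of cell function, -0.59, with 24 of 27 lower. An unadjusted p under 0.05 was reached by 15, all lower (55.6%, against 9.85% of all genes), and an adjusted p under 0.1 by 8 (29.6%, against 2.47%). Many of these genes are switched on when calcium signals reach the factor CREB, which binds a short element in their promoters. For that reason the 250 bases before the RefSeq start are shown for Nr4a3, Npas4 and Egr4, members with a single RefSeq start that were chosen after their values were seen (GRCm38.p6, 5′ to 3′ on the gene's strand, with TGACG or its reverse complement CGTCA in capitals).
Nr4a3, chr4:48045055-48045304, plus strand: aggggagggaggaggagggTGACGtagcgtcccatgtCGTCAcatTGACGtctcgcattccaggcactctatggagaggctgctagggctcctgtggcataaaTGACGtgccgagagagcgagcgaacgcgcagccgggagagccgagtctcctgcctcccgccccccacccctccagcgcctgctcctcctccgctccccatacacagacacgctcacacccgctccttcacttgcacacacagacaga
Npas4, chr19:4989972-4990221, minus strand: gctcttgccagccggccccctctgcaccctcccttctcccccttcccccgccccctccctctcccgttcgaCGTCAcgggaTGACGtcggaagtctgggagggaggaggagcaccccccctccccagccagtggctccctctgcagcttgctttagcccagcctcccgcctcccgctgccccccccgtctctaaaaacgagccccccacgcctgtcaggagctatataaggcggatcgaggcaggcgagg
Egr4, chr6:85513590-85513839, minus strand: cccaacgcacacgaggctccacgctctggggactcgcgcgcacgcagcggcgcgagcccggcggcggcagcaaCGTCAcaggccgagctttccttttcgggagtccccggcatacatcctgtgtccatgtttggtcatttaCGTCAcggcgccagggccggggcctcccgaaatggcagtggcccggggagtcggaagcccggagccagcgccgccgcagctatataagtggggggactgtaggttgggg

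The core TGACG, read on both strands and also counted inside the full element TGACGTCA, occurred 4 times in the Nr4a3 window, at 231, 213, 205 and 147 bases before the start. It occurred 2 times each in those of Npas4 and Egr4. Of the 21 immediate early genes matched in the promoter table used, 16 (76.2%) held the core, against 4 of 19 matched postsynaptic genes (21.1%) and 19.8% of all 27025 genes in that table, where a gene with several starts counts if any of its windows holds the core. The full element was in 2 of the 21 (9.52%) and in 1.77% of all these genes. These matches describe the sequences only.

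Nr4a3, an orphan nuclear receptor gene at chr4:48045153-48086447 (GRCm38), ranged from 3.62 to 11.6 CPM with a median of 8.32 CPM in lemborexant units. Its vehicle range was 13.2 to 19.1 CPM with a median of 16.1 CPM. Every lemborexant unit was below every vehicle unit, and the log2 change was -1.05 ± 0.20 (95% interval -1.49 to -0.62, edgeR adjusted p = 0.0531). Npas4, a factor that neurons induce on depolarisation, ranged from 0.753 to 7.56 CPM in lemborexant and from 5.78 to 17.6 CPM in vehicle units. Lemborexant 3 and 8 was the highest lemborexant unit and the one within the vehicle range, and the log2 change was -1.79 ± 0.48 (edgeR adjusted p = 0.0814). The zinc finger factor gene Egr2 had -1.10 ± 0.29, and Egr4 had -1.43 ± 0.39 at a mean of 1.08 and 2.98 CPM.

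Arc, whose protein removes AMPA receptors from active synapses, lies at chr15:74669083-74672570 (GRCm38). It ranged from 23.6 to 277 CPM with a median of 79.8 CPM in lemborexant and from 209 to 462 CPM with a median of 267 CPM in vehicle units. Lemborexant 3 and 8 was at 277 CPM, among the vehicle units, and the other lemborexant units were at 93.0 CPM or less. The log2 change was -1.47 ± 0.42 (95% interval -2.37 to -0.58, edgeR adjusted p = 0.0917). Fos, by contrast, overlapped widely, at 39.3 ± 9.24 CPM and 47.6 ± 13.8 CPM, with a log2 change of -0.27 ± 0.19 (95% interval -0.68 to 0.13). The list median was -0.59 within library numbers 1064 to 1602, with 15 lower at an unadjusted p under 0.05 (55.6%, against 11.3% of all genes in that fit), and -0.09 within 859 to 933, with 3 lower (11.1%, against 3.72%). Without lemborexant 7 and vehicle 7 it was -0.50.

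Markers of brain regions also differed in level between the groups. All 15 hippocampal markers were lower with lemborexant (median log2 change -1.09), 14 of them at an unadjusted p under 0.05 (93.3%, against 9.85% of all genes), and their summed level was 180 to 537 CPM in lemborexant against 647 to 949 CPM in vehicle units. The hippocampal score was at most 0.06 in lemborexant and at least 0.41 in vehicle units. Lct had a log2 change of -1.57 ± 0.34, Lefty1 -1.55 ± 0.34 and C1ql2, a gene of dentate granule cells, -1.24 ± 0.29. None of the hippocampal markers was at 0 in any unit, and their median was -1.09 also without lemborexant 7 and vehicle 7. Lemborexant 6 and 7 had the lowest hippocampal scores (-1.27 and -1.18) and the lowest postsynaptic scores (-0.68 and -0.59). Vehicle 5 had the highest hippocampal score (0.80) and the highest immediate early score (0.63), with a presynaptic score of -0.33. Lemborexant 4 and 9 had a hippocampal score of -1.07 and a presynaptic score of 0.16. The cause of these patterns was not tested. Since the hippocampal score did not overlap between the groups, treatment and the level of hippocampal markers cannot be told apart in these units.

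With the hippocampal score as a covariate in edgeR, 288 genes had an unadjusted p under 0.05 (1.06% of all genes higher and 0.442% lower), 0 were called and the lowest adjusted p was 0.9997. In that fit the postsynaptic median was 0.12 and the presynaptic one 0.04, with 0 members of either list at an unadjusted p under 0.05. The immediate early median was -0.26, also with 0 such members, and the reactive astrocyte median 0.27. Thalamic and hypothalamic markers had a median of 1.29 in the same fit. Of these 12 markers 7 were higher at an unadjusted p under 0.05 (58.3%, against 1.06% of all genes) and 0 lower.

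Thalamic and hypothalamic markers were higher in all 12 cases (median 1.22), each at an unadjusted p under 0.05 (100%, against 10.6% of all genes), with summed levels of 170 to 2408 CPM in lemborexant and 130 to 201 CPM in vehicle units. Tcf7l2, a thalamic factor gene, ranged from 42.0 to 134 CPM in lemborexant and from 21.4 to 48.0 CPM in vehicle units, with a log2 change of 1.11 ± 0.27. Foxp2, a forkhead factor gene, had one of 2.33 ± 0.39 (edgeR adjusted p = 0.0531). The peptide gene Trh was at 214 CPM in lemborexant 7 and at most 8.51 CPM elsewhere. Without lemborexant 7 and vehicle 7 the median of this list was 0.92, with 10 higher at an unadjusted p under 0.05 (83.3%, against 8.8% of all genes in that fit). Striatal markers were higher in 13 of 15 cases (median 0.97, with 10 at an unadjusted p under 0.05, or 66.7% against 10.6%), with summed levels of 260 to 672 CPM and 241 to 305 CPM. Their median was 0.58 without lemborexant 4 and 9, with 4 at that threshold (26.7%, against 8.75% of all genes in that fit), and 0.60 without lemborexant 7. It was 0.55 without lemborexant 7 and vehicle 7, with 7 at that threshold (46.7%, against 8.8% of all genes in that fit). Among them Tac1 had a log2 change of 1.59 ± 0.46, the dopamine receptor gene Drd1 1.11 ± 0.36, and Six3, which was at 0 in lemborexant 6 and vehicle 5, 3.21 ± 0.97. With the thalamic score as a covariate edgeR called 0 genes, and the postsynaptic median was -0.43 and the immediate early median -0.40. At an unadjusted p under 0.05, 10 of 32 postsynaptic genes were lower (31.2%, against 5.92% of all genes in that fit). Of 27 immediate early genes only 3 were lower at that threshold (11.1%, against 5.92%). The hippocampal markers had a median of -1.04 there, with 9 of 15 lower (60%, against 5.92%). In the same fit the reactive astrocyte median was 0.49, with 8 of 27 genes higher at an unadjusted p under 0.05 (29.6%, against 7.64% of all genes in that fit), the homeostatic microglia median 0.28 and the pan-microglial one 0.48, and Gfap had a log2 change of 0.42.

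**Figure D4:**
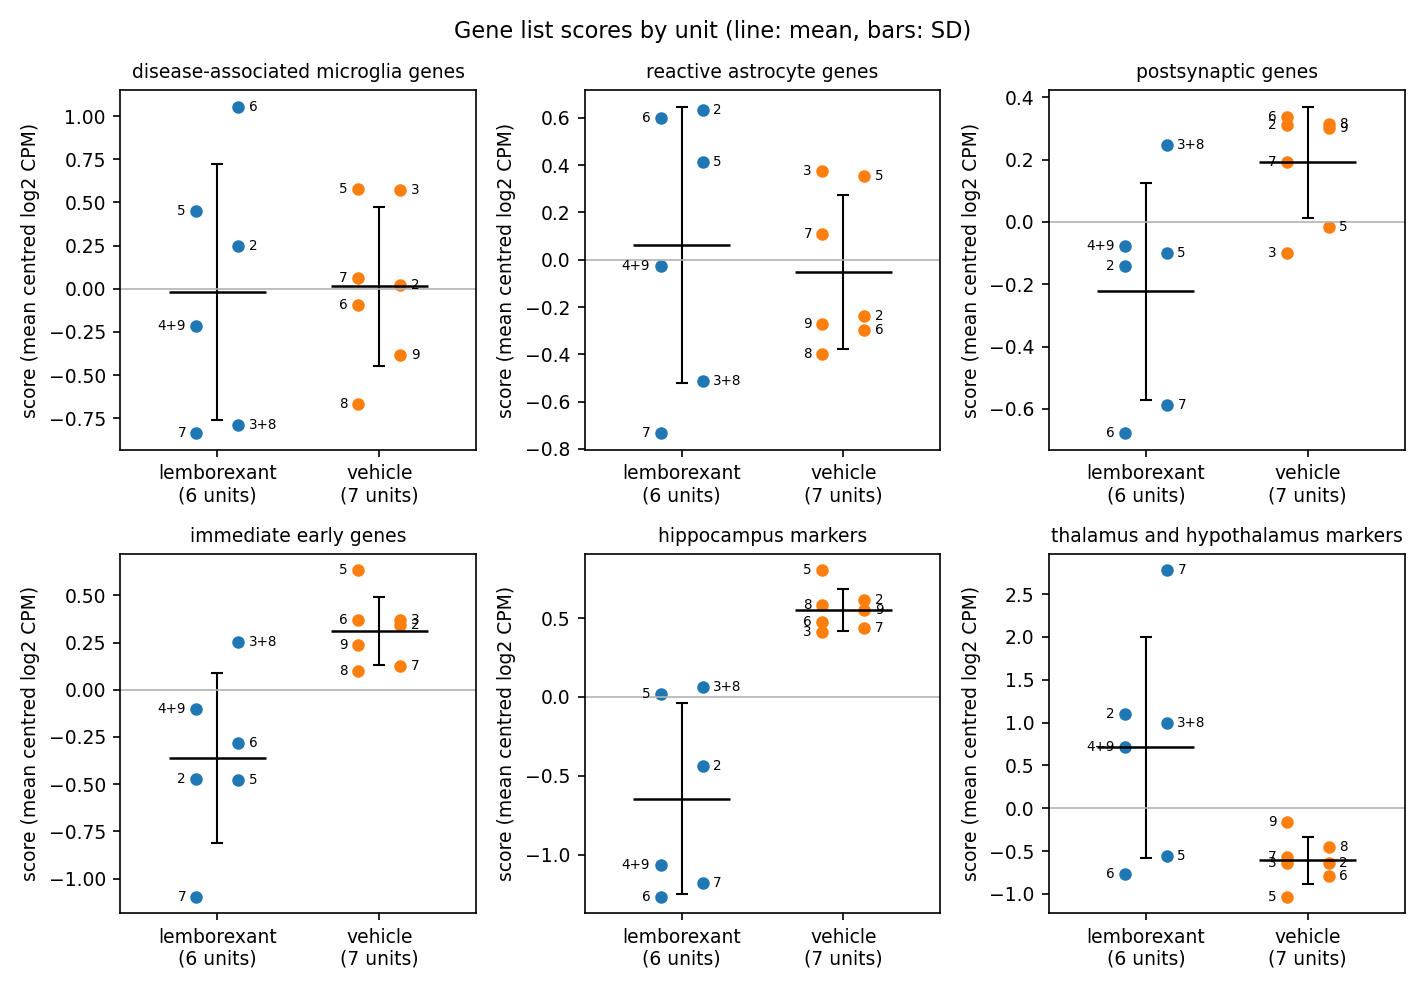
Score of 6 gene lists (y axis, mean centred log2 CPM, 0 being the mean of all units) in each unit (points, labelled by unit number), with the mean (line) and SD (bars) of 6 lemborexant and 7 vehicle units. The microglial and astrocyte scores overlap throughout, while the hippocampal scores of the lemborexant units, at most 0.06, all lie below those of the vehicle units, at least 0.41.

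Other cell markers were also followed. Of 9 neuronal markers 8 were lower (median -0.27) and of 12 cortical markers 7 were higher (median 0.14). Without lemborexant 7 and vehicle 7 these medians were -0.18 and 0.19, and without lemborexant 6 they were -0.17 and -0.05. All 10 oligodendrocyte markers were higher (median 0.40), 2 of them at an unadjusted p under 0.05 (20%, against 10.6% of all genes). Without lemborexant 7 the median was 0.52 and all 10 reached that threshold (100%, against 9.6% of all genes in that fit). All 10 also did without both lemborexant 7 and vehicle 7 (median 0.56, 100% against 8.8%). Without lemborexant 6 the oligodendrocyte median was 0.19, with 1 at the threshold (10%), while 4338 of 19508 genes reached it in either direction. Of 7 precursor markers 5 were higher (median 0.22, or 0.18 without lemborexant 7 and vehicle 7, 0.14 without lemborexant 2 and 0.13 without vehicle 5).

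All 11 choroid plexus markers were higher (median 0.47), none at an unadjusted p under 0.05. Their median was 0.06 without lemborexant 2 and 0.71 without lemborexant 7 and vehicle 7. Choroid plexus summed levels ran from 132 to 10610 CPM in lemborexant and from 39.5 to 8635 CPM in vehicle units. Blood markers were lower in all 5 cases (median -1.14), with summed levels of 22.9 to 73.6 CPM and 19.7 to 276 CPM. Of 6 liver genes 5 were lower (median -4.16), with vehicle 7 the highest. Without vehicle 7 the blood median was -0.53 and the liver median -0.76, and without both lemborexant 7 and vehicle 7 they were -0.82 and -0.87. The part of these tissues in the results was not tested.

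**Figure D5:**
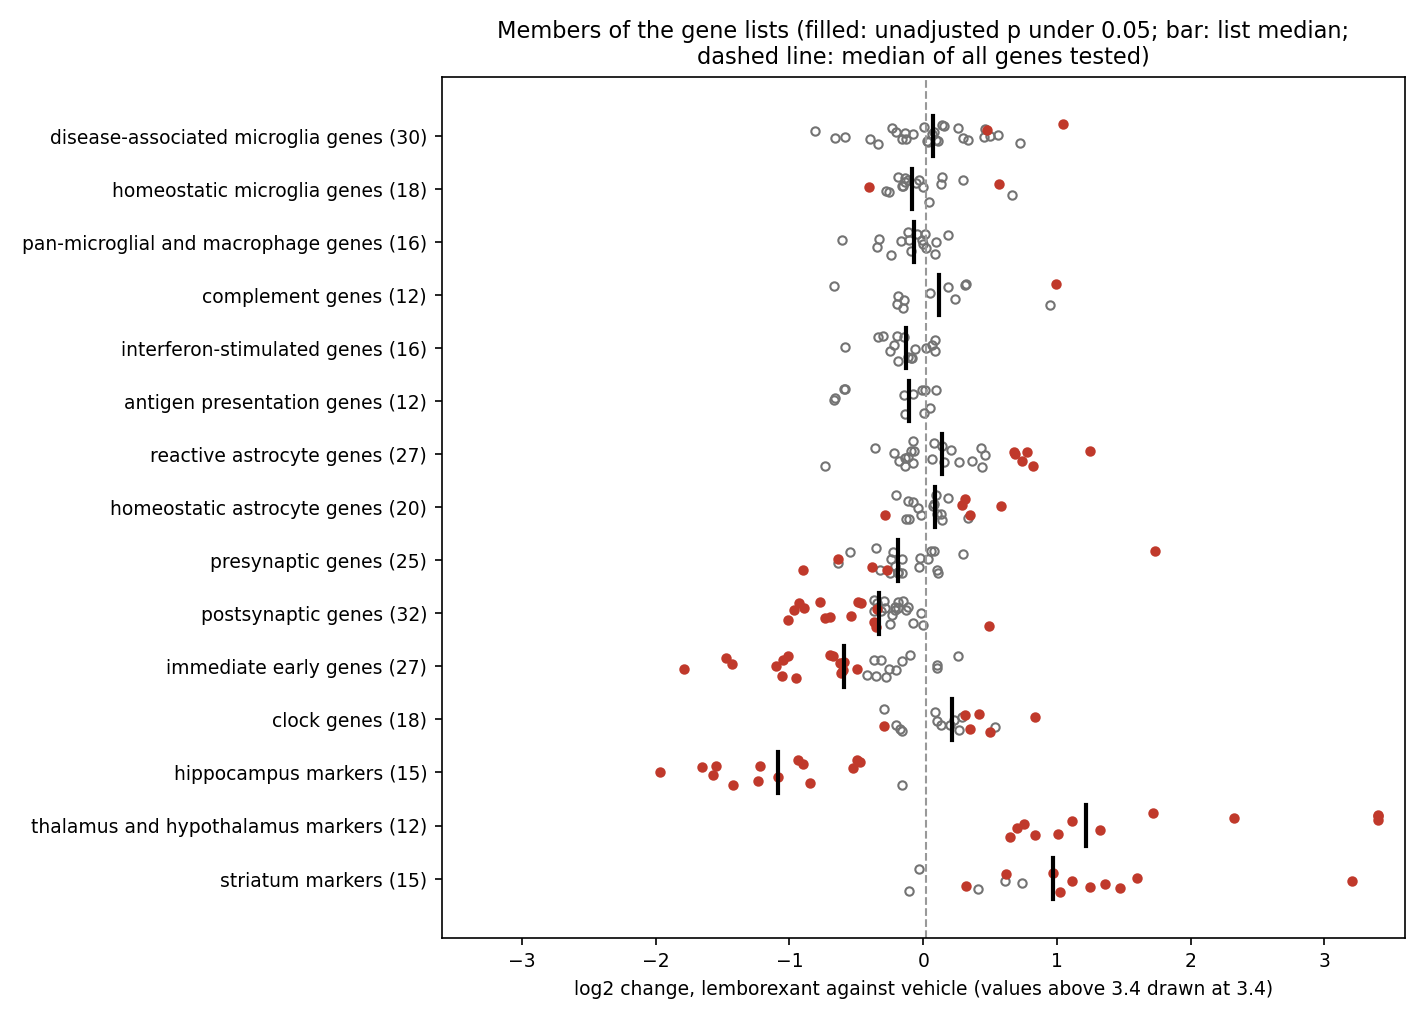
Log2 change of lemborexant against vehicle (x axis) of each member of 15 gene lists (points, filled where the unadjusted p is under 0.05; number of genes in brackets), with the list median (bar) and the median of all genes, 0.02 (dashed line). Glial medians lie between -0.13 and 0.14, the immediate early median is -0.59, and hippocampal and thalamic medians are -1.09 and 1.22.

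The disease-associated microglia score varied from unit to unit within both groups, and with this score as a covariate edgeR called 388 genes higher (2.02%) and 498 lower (2.59%) at an adjusted p under 0.05. In that fit 5 postsynaptic genes passed as lower and 1 as higher of 32, and 3 immediate early genes passed as lower of 27. Homer3 fell by 1.01, Camk2b by 0.77 and Nr4a3 by 1.05 on the log2 scale, with edgeR adjusted p-values of 0.0244, 0.0209 and 0.0209. Among astrocyte genes Kcnj10 rose by 0.58, Aqp4 by 0.31 and Fbln5 by 0.82, with edgeR adjusted p-values of 0.0242, 0.0483 and 0.0209. Of the genes of the score itself 2 passed as higher and 1 as lower of 30, and these went into the covariate. The region markers passed in the same fit, with 6 of 15 hippocampal genes lower and 4 of 12 thalamic genes higher.

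Clock genes were higher in 13 of 18 cases (median 0.21), with 5 higher (27.8%, against 10.6% of all genes) and 1 lower (5.56%, against 9.85%) at an unadjusted p under 0.05. The median was 0.22 without lemborexant 7 and vehicle 7 and 0.14 without lemborexant 2. Nr1d1, which encodes the circadian repressor REV-ERB alpha, was at 176 ± 40.3 CPM and 125 ± 18.9 CPM, a log2 change of 0.50 ± 0.15 (95% interval 0.18 to 0.82, edgeR adjusted p = 0.0999). Rora, its opposing activator and also one of the thalamic markers, had 0.83 ± 0.21, the repressor gene Bhlhe41 0.35 ± 0.10 and the output factor gene Tef -0.29 ± 0.08. The receptors blocked by the drug were at low levels. Hcrtr1 was at 6.62 CPM in lemborexant 7 and between 0.863 and 2.46 CPM in the 5 others of its group, against 0.881 to 2.69 CPM with vehicle, and Hcrtr2 was at 10.9 CPM in lemborexant 7 and at most 4.73 CPM in every other unit. Their log2 changes were 0.61 ± 0.42 and 0.63 ± 0.32. The orexin peptide gene Hcrt did not pass the filter on low counts.

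The 8 genes with the smallest p in each direction over the whole table all had an edgeR adjusted p of 0.0531. Lower genes were Kcnip2, a potassium channel partner (-1.02 ± 0.16), Gabra5, a GABA-A receptor subunit gene of the hippocampus (-0.995 ± 0.176), Tesc, a calcium-binding protein gene (-1.53 ± 0.26), Kctd4 (-0.75 ± 0.12), Fkbp1b, which binds ryanodine receptors (-0.78 ± 0.12), Asphd2 (-0.66 ± 0.11), the kinase gene Mast3 (-0.68 ± 0.12) and the vesicle protein gene Clvs2 (-0.64 ± 0.11). In each of these 8 every lemborexant unit lay below every vehicle unit, as for 260 of all genes (1.35%). The 8 were chosen by their p in these same units, so this separation adds no support. Kcnip2, for example, ranged from 23.1 to 50.4 CPM in lemborexant and from 61.3 to 76.5 CPM in vehicle units.

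Higher genes were Foxp2, the receptor phosphatase gene Ptprm (0.66 ± 0.12), the synaptotagmin gene Syt9 (1.65 ± 0.31), Lrrn4cl (1.48 ± 0.27), Spag8 (1.23 ± 0.22) and Gm13629 (0.85 ± 0.14), an antisense gene whose reads cannot be told from those of an overlapping gene without strand. Plac9b (1.79 ± 0.27) and Gm9780 (1.52 ± 0.28) are near-identical copies that share reads, so their separate values are uncertain. Ptprm ranged from 15.4 to 25.9 CPM in lemborexant and from 10.6 to 13.7 CPM in vehicle units, with no overlap, as for 95 of all genes (0.494%).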

How the data were processed

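Cortical RNA was profiled in 19 libraries, of which 15 passed the rule on Cst7 (at least 1 CPM of the library total). Groups came from the treatment labels, and library numbers from the titles. The tools were bcl2fastq and DRAGEN 3.9.3-8 and the build GRCm38, per the submitters' processing notes, while annotation release and strand setting were not given in the sources used here. Per the file headers, the deposited tables hold an estimated count and a TPM value for each of 55487 genes. Estimated counts divide shared reads between genes, and they were rounded and summed over near-identical pairs. The deposited TPM values, relative to library total and gene length, were used for 2 alternatives with genes of at least 1 TPM on average and pseudocounts of 1 and 0.1.

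Treatments were compared with the quasi-likelihood test of edgeR 4.0.16 (robust, TMM factors, edgeR's filter on low counts, two-sided, R 4.3.3) on 6 lemborexant and 7 vehicle units, adjusted by Benjamini-Hochberg over 19226 genes, at a threshold of 0.05. The biological coefficient of variation was 0.29. The SE of a log2 change was computed as its size over the square root of F, and log2 CPM used a prior count of 2. Named are the 8 genes with the smallest p in each direction whose mean reached 1 CPM, a panel of 33 genes, and the 3 members with the smallest p of each described list, some of which are not reported here. A set of 13 lists of cell function and 12 marker lists was used. The members and lists were chosen with earlier results of these data known. Alternatives were DESeq2 1.42.0, limma 3.58.1 (voom, or TPM), RLE factors, no filter, unsummed or single libraries of the pairs, all 19 libraries, each library number range, covariates, and leaving out units. The edgeR script was tested on simulated data. GENCODE's annotation of GRCm38 gave coordinates and named 55141 of the genes, and RefSeq gave the promoters. With at least 22753316 reads a library, the spread between units and not counting limits most values.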

Additional observations from a re-analysis of the deposited data

Results flagged for a closer look

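Single units stood apart from the rest of their group, by Dixon's test of a gap against the range, in 29 of 182 combinations of a named gene and a group. Chance flags about 1 in 20 groups, and genes of one cell type or region are not independent of each other. The range over the other units of the same group stands in brackets. Vehicle 8 stood apart in Lrrn4cl at 2.22 CPM (0.895 to 1.3 CPM), Syt9 at 2.64 CPM (1.69 to 2.06 CPM) and C1ql2 at 4.15 CPM (6.82 to 8.23 CPM). Lemborexant 3 and 8 stood apart in Asphd2 at 41.2 CPM (35.1 to 37.3 CPM) and Arc at 277 CPM (23.6 to 93.0 CPM). Vehicle 5 stood apart in Tesc at 32.4 CPM (12.98 to 19.8 CPM), Clvs2 at 52.6 CPM (37.3 to 41.8 CPM), Nrgn at 927 CPM (643 to 739 CPM), Arc at 462 CPM (209 to 306 CPM), H2-Ab1 at 123 CPM (17.2 to 59.5 CPM), H2-Eb1 at 80.3 CPM (9.42 to 35.7 CPM) and Lefty1 at 30.6 CPM (7.59 to 15.2 CPM). Lemborexant 6 stood apart in Tyrobp at 469 CPM (68.0 to 182 CPM), Apoe at 377 CPM (48.1 to 158 CPM) and Aif1 at 128 CPM (24.3 to 60.5 CPM). Vehicle 3 stood apart in P2ry12 at 120 CPM (68.4 to 90.5 CPM), Lcn2 at 29.4 CPM (4.1 to 13.6 CPM) and Kcnj10 at 102 CPM (70.3 to 80.8 CPM). Lemborexant 7 stood apart in Slc17a7 at 15.2 CPM (91.4 to 118 CPM), Hcrtr1 at 6.62 CPM (0.863 to 2.46 CPM), Hcrtr2 at 10.9 CPM (2.73 to 4.35 CPM), Sparc at 2611 CPM (760 to 1150 CPM), Syn2 at 145 CPM (180 to 193 CPM), Slc17a6 at 156 CPM (6.36 to 57.6 CPM), Pmch at 1225 CPM (0.145 to 2.16 CPM), Trh at 214 CPM (0.227 to 8.51 CPM), Tac1 at 120 CPM (11.9 to 37.7 CPM) and Six3 at 16.4 CPM (0 to 4.91 CPM). Lemborexant 4 and 9 stood apart in Drd1 at 13.2 CPM (2.94 to 6.2 CPM).

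Pmch and Trh, which stood apart in lemborexant 7, belong to the list of thalamic and hypothalamic markers, Tac1 and Six3 to the striatal list. Tyrobp, Apoe and Aif1, which stood apart in lemborexant 6, belong to the microglial lists.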

How the results depend on the processing

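The lack of calls at an adjusted p of 0.05 held in edgeR with the first library of each pair only, with library numbers 1064 to 1602 only, with all 19 libraries (pairs summed), without lemborexant 7 and vehicle 7, with the hippocampal or the thalamic score as covariate, and on log2(TPM + 0.1) in limma, each with 0 genes. Other settings made calls: RLE factors 45 genes (11 higher, 34 lower), no expression filter 2 (1 and 1), DESeq2 1338 (583 and 755), voom 1906 (907 and 999), log2(TPM + 1) 1 (1 and 0), the 15 libraries counted separately 522 (203 and 319), library numbers 859 to 933 only 43 (38 and 5), the number range as covariate over 15 libraries 598 (269 and 329), the microglial score as covariate 886 (388 and 498) and a threshold of 0.1 835 (360 and 475). Leaving out 1 unit gave 0 to 670 calls (0 to 241 higher, 0 to 429 lower): 670 without lemborexant 3 and 8, 159 without lemborexant 5 (55 and 104), and 0 for each of the other 11. The cause of these differences was not tested. Counting pairs separately treats nearly identical libraries as independent. The TPM settings moved the median log2 change of all genes to 0.14 and 0.16.

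Of 91 named genes, 55 kept their direction in every alternative and 84 without any 1 unit. Log2 changes of the opposite sign were, with the hippocampal score as covariate, Clec7a -0.42, Apoe -0.60, C3 -0.068, Snap25 0.19, Syp 0.037, Camk2a 0.15, Gria1 0.086, Grin2b 0.27, Hcrtr1 -0.17, Hcrtr2 -0.12, Timp2 -0.25, Sparc -0.29, Isg15 0.14, Irf7 0.20, Pmch -2.69, Trh -0.41 and Tac1 -0.53. With the thalamic score they were Itgax 0.27, Trem2 0.49, Tyrobp 0.61, Aif1 0.55, C1qa 0.56, P2ry12 0.077, Tmem119 0.17, Gfap 0.42, Serpina3n 0.33, Slc1a2 0.15, Slc17a7 0.049, Hcrtr1 -0.79, Hcrtr2 -0.19, Sparc -0.095, Hcls1 0.18, Isg15 0.13, Irf7 0.26, Bst2 0.36, H2-Ab1 0.056, H2-Eb1 0.023, Slc17a6 -0.55 and Pmch -5.22. With library numbers 859 to 933 only they were Itgax 0.047, Apoe -0.036, Aif1 0.032, Lcn2 -0.22, Syp 0.043, Fos 0.45 and H2-Eb1 0.075, with 1064 to 1602 only Clec7a -0.23 and Slc1a2 0.014, and with the range as covariate Clec7a -0.14 and Slc1a2 0.0013. On log2(TPM + 1) they were Tmem119 0.0093, Gfap 0.062, Slc1a2 0.13 and Dlg4 0.092, and on log2(TPM + 0.1) Tmem119 0.0089, Gfap 0.062, Slc1a2 0.13 and Dlg4 0.094. Further values were Clec7a -0.15 with the libraries counted separately, Clec7a -0.047 with the microglial score, Gfap 0.047 and Slc1a2 0.038 with all 19 libraries, Gfap 0.021, Slc1a2 0.06, Irf7 0.13 and Bst2 0.038 without lemborexant 7 and vehicle 7, and Slc1a2 0.012 with voom. The cause of each was not tested.

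Leaving out 1 unit gave log2 changes of -0.38 (without lemborexant 6) to 0.20 for Clec7a, -0.71 to 0.13 for Tyrobp, -0.026 to 0.64 for Apoe, -0.63 to 0.049 for Aif1, -0.58 to 0.060 for C1qa, -0.29 to 0.069 for Gfap and -0.075 to 0.077 for Slc1a2. No paired analysis was possible because the labels give library numbers and no shared replicate numbers. With 6 and 7 units, the 95% intervals of Clec7a, Trem2, Tyrobp, Aif1 and C1qa include a 1.5-fold difference in either direction, so a difference of that size was not excluded.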
